A study of Mus musculus with 4 samples.

Results

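The angiopoietin and Tie receptor system was followed through 5 genes, Angpt1, Angpt2, Tek, Tie1 and Ptprb, of 18193 genes measured. The genes were chosen by symbol in the platform annotation, which gave them 9 probe sets, a rule that uses no measured value. The study derived endothelial cells from induced pluripotent stem cells (iPSCs, made by returning adult cells to a state that can form any tissue). The iPSCs came from 2 mice with diet-induced obesity (DIO) and 2 healthy control mice, all aged 24 weeks, with 1 Affymetrix expression array per mouse. Cells of both groups were grown in an endothelial cell medium and trypsinized before RNA was taken. The labels give no strain, diet, iPSC clone or sort, and their cell type entry reads iPSC where the titles name endothelial cells. The replicates are thus separate animals, but how many iPSC lines each gave is not stated, and p-values measure the spread between these 4 arrays.

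Angiopoietins are secreted ligands that keep blood vessels stable or loosen them. Tek, also called Tie2, is their receptor tyrosine kinase on endothelial cells. Angpt1, which mural cells around the vessel mainly make, activates it and holds the endothelium quiescent. Angpt2, which endothelial cells store and release, mostly opposes Angpt1 and can act as a weak activator. Tie1 is a related receptor that binds no angiopoietin directly with high affinity and tunes Tie2 signalling. Ptprb (VE-PTP) is the endothelial receptor phosphatase that removes phosphate from Tie2 and is bound to VE-cadherin. Activated Tie2 signals through PI3 kinase and Akt, which holds the transcription factor Foxo1 out of the nucleus, and Angpt2 is itself a Foxo1 target.

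The promoters of the receptors Tek and Tie1 are shown because the results turn on these receptors and the promoter table used here holds them. Both genes lie on mouse chromosome 4, while Angpt1, Angpt2 and Ptprb lie on chromosomes 15, 8 and 10. Each window runs from 250 bases before to 50 bases after the RefSeq transcript start (GRCm38.p6), 5′ to 3′ on the gene's strand. Capitals mark GGAA or its reverse complement TTCC, the core of the ETS factor motif, searched on both strands.
Tek, chr4:94739039-94739338, plus strand: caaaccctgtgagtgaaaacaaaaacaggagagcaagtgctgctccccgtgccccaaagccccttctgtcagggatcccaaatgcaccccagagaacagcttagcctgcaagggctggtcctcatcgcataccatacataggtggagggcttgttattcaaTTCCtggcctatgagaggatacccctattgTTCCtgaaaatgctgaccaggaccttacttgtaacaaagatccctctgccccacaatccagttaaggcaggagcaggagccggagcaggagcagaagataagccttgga
Tie1, chr4:118489800-118490099, minus strand: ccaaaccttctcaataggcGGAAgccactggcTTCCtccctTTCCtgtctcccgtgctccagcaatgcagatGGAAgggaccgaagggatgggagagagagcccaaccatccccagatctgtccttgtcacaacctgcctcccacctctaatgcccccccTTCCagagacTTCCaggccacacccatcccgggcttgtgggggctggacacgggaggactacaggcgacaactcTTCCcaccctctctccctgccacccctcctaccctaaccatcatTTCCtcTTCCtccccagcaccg

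The Tie1 window held 9 ETS cores, a number reached in 1.59% of 32851 promoter windows of the same length. The Tek window held 2, which 84.6% of windows reach, and the median window held 3. The GATA motif AGATAA occurred once in the Tek window, as in 11.2% of all windows on either strand, and not in the Tie1 window. Neither window held the FOXO motif GTAAACA or the Oct motif ATGCAAAT, which 3.65% and 1.74% of windows hold. These matches describe the letters of the windows only.

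**Figure D1:**
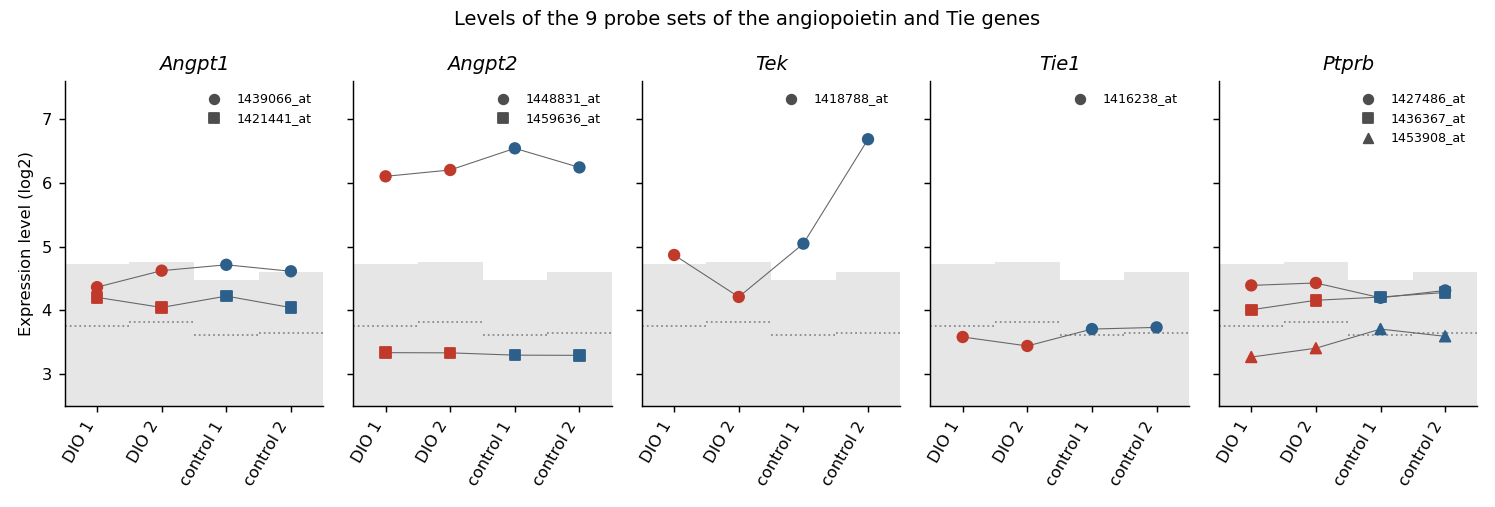
Log2 expression level of each probe set (marker shape) in DIO 1, DIO 2 (red), control 1 and control 2 (blue), 1 panel per gene. Grey reaches up to the 95th percentile of 43 olfactory receptor probe sets on that array and the dotted line is their median; Angpt2 by 1448831_at lies above the grey on all 4 arrays, Tek on 3 of 4, and Tie1 and the Ptprb probe sets on none. Angpt1 by 1439066_at lies above the grey in both controls, barely in control 2, and in neither DIO array, and by 1421441_at on none.

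The system was dim on these arrays apart from 1 probe set of Angpt2 and, in 1 control, Tek. No detection calls were used here, so 43 probe sets of 38 olfactory receptor genes, which few tissues outside the nose express, served as a yardstick chosen after the values were seen. Their median was 3.75 and 3.81 in DIO 1 and 2, against 3.61 and 3.65 in control 1 and 2, and their 95th percentile was 4.73 and 4.76 in DIO, against 4.48 and 4.61 in the controls. Levels of different probe sets can be compared only roughly, so this places a level near or above background without measuring an amount.

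Angpt2, the context-dependent ligand, was at 6.10 and 6.20 in DIO 1 and 2 by probe set 1448831_at, against 6.54 and 6.24 in control 1 and 2 (log2 levels, as throughout). All 4 values lay above every olfactory receptor probe set, whose highest level was 5.13, and both DIO arrays lay below both controls, by 0.04 at the closest pair. The mean was 6.15 ± 0.07 in DIO and 6.39 ± 0.21 in the controls (SD, n = 2 each), a difference of −0.24 ± 0.16 (SE) with a 95% confidence interval from −0.68 to 0.20 (limma, adjusted p = 0.778). The DIO mean lay 0.39 below control 1 and 0.09 below control 2. The second probe set, 1459636_at, was at 3.34 and 3.33 in DIO, against 3.30 and 3.30 in the controls. It was above only 11.6% of the olfactory receptor probe sets in its mean level and varied by 0.04 over all arrays, a level at background.

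Angpt1, the activating ligand, was at 4.37 and 4.62 in DIO, against 4.72 and 4.61 in the controls, by probe set 1439066_at. DIO 2 lay between the controls, so the groups overlapped, and the difference was −0.17 ± 0.15 (SE), with a 95% interval from −0.59 to 0.25 (limma, adjusted p = 0.823). The other probe set, 1421441_at, was at 4.21 and 4.05 in DIO, against 4.23 and 4.04 in the controls, a difference of −0.01 ± 0.14. On single arrays these probe sets stood above 69.8% to 97.7% of the olfactory receptor probe sets. Probe set 1439066_at exceeded their 95th percentile in both controls, at 4.72 against 4.48 and 4.615 against 4.606, and in neither DIO array. Probe set 1421441_at exceeded it on no array, so the ligand was near background in both groups.

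Tek, the angiopoietin receptor, had the widest spread of the 5 genes. It was at 4.87 and 4.21 in DIO 1 and 2, against 5.05 and 6.69 in control 1 and 2, by its only probe set. Control 2 alone stood high: DIO 1 and control 1 were 0.18 apart, and DIO 2 lay within the olfactory receptor range, above 72.1% of those probe sets. Both DIO arrays lay below both controls. The mean was 4.54 ± 0.47 in DIO and 5.87 ± 1.16 in the controls (SD, n = 2 each). The difference was −1.33 ± 0.62 (SE), with a 95% interval from −3.03 to 0.38, and it did not pass (limma, adjusted p = 0.735). Since DIO 2 was at background, the size of the difference depends in part on where background lies. The gap between the controls, 1.64, exceeded the difference between the groups and was itself larger than in 97.2% of genes. Without control 2 the difference was −0.51 ± 0.32 (limma, adjusted p = 0.530), and without control 1 it was −2.15 ± 0.32 (limma, adjusted p = 0.0641). Each of these leaves 1 control array, so the spread comes from the DIO pair, moderated by limma over all genes, and the lone control is assumed to vary like it; the same holds wherever 1 control is left out.

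Tie1, the second receptor of the family, was at 3.58 and 3.44 in DIO, against 3.71 and 3.73 in the controls. Both DIO arrays lay below both controls, and the difference was −0.21 ± 0.13 (SE), with a 95% interval from −0.56 to 0.15 (limma, adjusted p = 0.770). Its mean level was above that of 37.2% of the olfactory receptor probe sets and of 7.53% of all genes, so this difference was between values at background.

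Ptprb, the phosphatase that acts on Tie2, gave probe sets that disagreed in direction. By 1427486_at it was at 4.39 and 4.43 in DIO, against 4.20 and 4.31 in the controls, with both DIO arrays above both controls. The other pair of probe sets ran the other way, with each DIO array below each control. Probe set 1436367_at was at 4.01 and 4.16 in DIO, against 4.21 and 4.28 in the controls, and 1453908_at was at 3.27 and 3.41 in DIO, against 3.71 and 3.59 in the controls. The differences were 0.16 ± 0.13, −0.16 ± 0.13 and −0.31 ± 0.13 (SE), and with the probe sets averaged −0.11 ± 0.11. In mean level the 3 probe sets exceeded 88.4%, 76.7% and 27.9% of the olfactory receptor probe sets. No direction can be given for this gene.

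**Figure D2:**
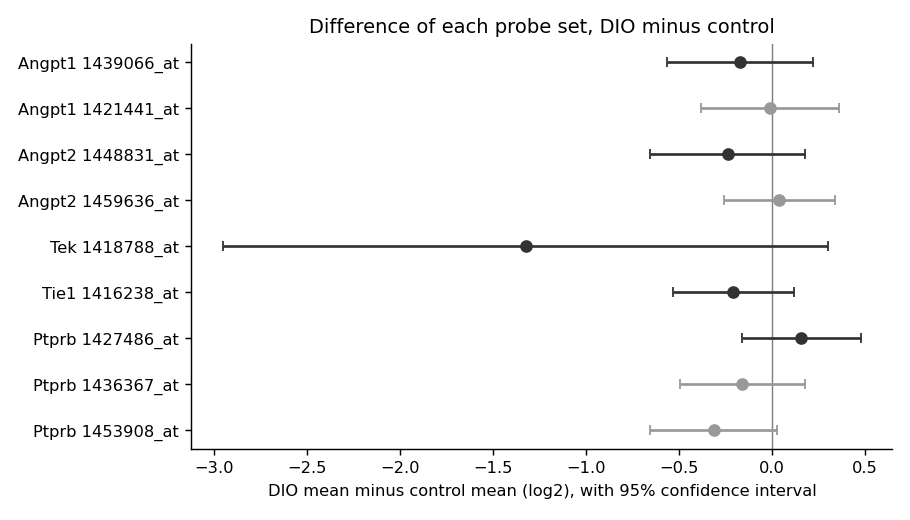
DIO mean minus control mean in log2 units for each of the 9 probe sets, with 95% confidence intervals from the limma fit over all probe sets; black marks the brightest probe set of each gene and grey the others. Every interval includes 0, Tek by 1418788_at has the widest, and the Ptprb points lie on both sides of 0.

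Of the 5 genes, 0 passed the adjusted threshold of 0.05 in limma and 0 had an unadjusted p below 0.05. Over all genes 0% passed and 6.58% had an unadjusted p below 0.05. Without control 1, 483 genes passed, and none of the 5 was among them. Both DIO arrays lay below both controls for 3 of the 5 (Angpt2, Tek and Tie1), where 17% of all genes did, and above both for 1 (Ptprb), where 21.4% of all genes did. Against control 1 alone both DIO arrays were lower for 4 of the 5, where 42.3% of all genes were, and against control 2 alone for 3, where 29.6% were. With 2 arrays a side an exact permutation test of 1 gene cannot give a 2-sided p below 0.333. The half-width of the 95% interval was between 0.35 and 0.44 for Angpt1, Angpt2, Tie1 and Ptprb and 1.71 for Tek.

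Control 2 differed from the other arrays in more than Tek. All 11 measured epidermal markers were highest there, and the list averaged 8.62 and 9.52 in DIO 1 and 2, against 7.37 and 12.07 in control 1 and 2. Fibroblast and mesenchymal markers were highest there for 6 of 8, with means of 6.37 and 6.68 in DIO, against 6.35 and 7.55 in the controls. Pluripotency markers averaged lowest there, at 9.13 against 10.13 in control 1, and 0 of 12 were higher in control 2 than in control 1. Endothelial markers were highest there for 8 of 26, or 30.8%, where 21% of all genes were, and they averaged 5.88 and 5.85 in DIO, against 5.91 and 6.04 in the controls. Of these 26, 14 were higher in control 2 than in control 1, with a median gap of 0.03, and the rest were lower. The genes of this list named here were picked after their values were seen, for the largest gaps each way. The transcription factor Sox17 was at 5.98 and 5.63 in DIO, against 5.86 and 8.22 in the controls. The receptor-modifying protein Ramp2 was at 5.63 and 5.86 in DIO, against 5.27 and 7.36 in the controls. Lower in control 2 were Flt4, at 7.41 and 7.53 in DIO, against 7.72 and 6.45 in the controls, and Vwf. Vwf was at 5.53 and 5.35 in DIO, against 6.37 and 5.48 in the controls. With control 2 as the lone control, Sox17 and Ramp2 differed by −2.41 and −1.62, a comparison that restates how high that array is. The part of these cell type markers in the Tek difference was not tested, and in bulk RNA fewer cells of a type and less RNA per cell cannot be told apart. Of the RNA measures, 18S ribosomal RNA averaged 12.30 and 11.96 in DIO, against 12.60 and 12.65 in the controls. The Gapdh 3′ level minus its 5′ level was 0.07 and 0.21 in DIO, against 0.10 and 0.15 in the controls, so the groups overlapped. The part of either measure in these differences was not tested.

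Genes whose levels followed Tek most closely were Foxa2, a transcription factor of endoderm, Ggct, an enzyme of glutathione breakdown, and Fosl2, an AP-1 subunit. After each gene was centred on its own mean, their root mean square differences from Tek over the 4 arrays were 0.11, 0.15 and 0.16 log2 units, the smallest among 8923 genes that were brighter than the median gene and had no clone or predicted-gene name. Foxa2 was at 7.20 and 6.45 in DIO, against 7.21 and 8.72 in the controls. Its difference was −1.14 ± 0.59 (limma, adjusted p = 0.750), that of Ggct −1.17 ± 0.66 and that of Fosl2 −1.25 ± 0.58. All 3 shared the high value of control 2, which exceeded control 1 by 1.50 to 1.85. Their choice by nearness to Tek fixed this in advance. None is an endothelial marker of the list used, but the search left out every gene dimmer than the median gene. Sox17 and Ramp2 were dimmer than that and could not enter, so nothing follows from the absence of endothelial markers.

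**Figure D3:**
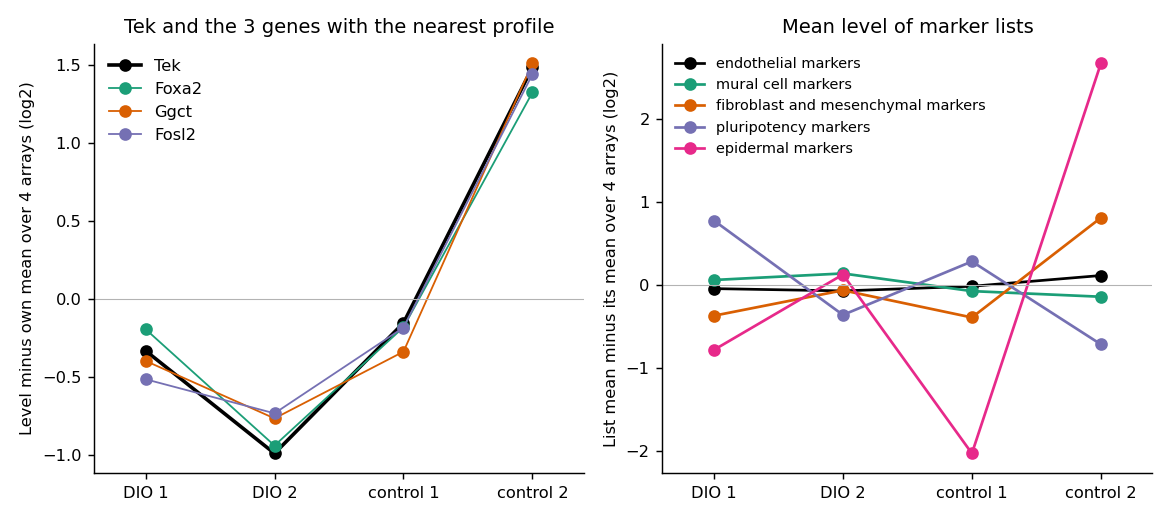
Left, log2 level minus the gene's own mean over the 4 arrays for Tek and its 3 nearest genes; right, the same for the mean of 5 marker lists. Tek, Foxa2, Ggct and Fosl2 are highest in control 2, as are the epidermal list at 12.07 and the fibroblast and mesenchymal list at 7.55, while endothelial and mural lists move little. The pluripotency list is lowest in control 2, at 9.13.

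Endothelial identity was therefore checked beside the Tie genes. Of the 26 endothelial markers, 20 had a mean level above the 95th percentile of the olfactory receptor probe sets. So did 13778 of all 18193 genes, so this count does not set the list apart. The brightest were the junction proteins Cdh5 (VE-cadherin, a partner of Ptprb), at 8.48 and 9.34 in DIO, against 8.37 and 8.87 in the controls, and Esam, at 8.76 and 9.11 in DIO, against 8.66 and 8.93 in the controls, with the secreted factor Egfl7 at 8.98 and 8.75 in DIO, against 8.80 and 8.27 in the controls. The 6 others included the ETS factors Erg and Fli1, at 4.54 and 4.66 and at 3.71 and 3.76 in DIO, against 4.56 and 4.53 and 3.65 and 3.66 in the controls (named after their values were seen). Low Tie1 and Ptprb levels thus stood beside low levels of some endothelial markers and higher levels of others. Simple epithelial keratins were near the top of the scale, with Krt8 at 14.00 and 14.07 in DIO, against 14.09 and 14.00 in the controls, and pluripotency markers averaged 10.62 and 9.49 in DIO, against 10.13 and 9.13 in the controls.

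Mural cells, the usual source of Angpt1, were followed by 12 markers, which averaged 6.63 and 6.71 in DIO, against 6.50 and 6.43 in the controls. Both DIO arrays were above both controls for 5 of the 12, or 41.7%, and below for 2, or 16.7%, where 21.4% and 17% of all genes were, and 0 passed (1 had an unadjusted p below 0.05). The smooth muscle genes Acta2 and Tagln were at 10.00 and 10.09 and at 9.64 and 9.44 in DIO, against 9.66 and 8.61 and 8.94 and 8.26 in the controls, and the receptor Notch3 was at 8.02 and 8.13 in DIO, against 7.84 and 9.03 in the controls. With control 2 as the lone control, Acta2 differed by 1.44. Trophoblast markers averaged 9.36 and 9.61 in DIO, against 9.23 and 8.85 in the controls. Blood and megakaryocyte markers averaged 6.52 and 6.51 in DIO, against 6.52 and 6.47 in the controls.

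Further ligands and modulators showed no shared direction. Of 11 measured, 7 had a higher and 4 a lower DIO mean, with a median difference of 0.03 beside 0.02 over all genes, and 0 passed or had an unadjusted p below 0.05. Angpt4, another Tie2 ligand, was at 6.07 and 6.11 in DIO, against 6.29 and 5.80 in the controls. Svep1 and Lect2, which can bind Tie1, differed by 0.25 ± 0.29 and 0.19 ± 0.19. These 3 were named for their role after their values were seen. The integrin subunit Itgb1 differed by −0.09 ± 0.12, the sheddase Adam17 by −0.21 ± 0.12, the membrane metalloproteinase Mmp14 by 0.12 ± 0.50, and Angptl7, an angiopoietin-like protein that does not bind Tie2, by 0.29 ± 0.15, the smallest p of the group.

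Ptprj and Ptpro, receptor phosphatases of the same structural class as Ptprb, both had DIO arrays below the controls by their brightest probe sets, where 17% of all genes did. Ptprj was at 4.95 and 5.01 in DIO, against 5.41 and 5.54 in the controls, by its brightest probe set, a difference of −0.50 ± 0.13 which missed the threshold (limma, adjusted p = 0.728). Its other 3 probe sets differed by −0.028, −0.085 and 0.013. Ptpro differed by −0.13 ± 0.13, at levels within the olfactory receptor range and with 0.03 between the closest pair of arrays. By its other probe set Ptpro differed by 0.001, and the groups overlapped.

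No gene that carries the Tie2 signal passed in limma. Of 26 measured, 19, or 73.1%, had a lower DIO mean, where 46.7% of all genes did. The median difference was −0.17 beside 0.02 over all genes, and both DIO arrays lay below both controls for 11, or 42.3%, where 17% of all genes did. Above both lay 4, or 15.4%, where 21.4% of all genes did. An unadjusted p below 0.05 was reached by 6, or 23.1%, where 6.58% of all genes did, 4 lower and 2 higher. Against control 1 alone both DIO arrays were lower for 14 of the 26, or 53.8%, where 42.3% of all genes were, and against control 2 alone for 15, or 57.7%, where 29.6% were. With control 2 as the lone control, Tiam1, an activator of Rac1 named after its values were seen, differed by −1.89. It was at 8.39 and 8.58 in DIO, against 8.32 and 10.38 in the controls.

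Within this list Pik3cb, a catalytic subunit of PI3 kinase, had the smallest p. It was at 9.93 and 9.72 in DIO, against 10.66 and 10.50 in the controls, a difference of −0.75 ± 0.15 (limma, adjusted p = 0.728). It differed by −0.83 from control 1 and by −0.67 from control 2, so neither control alone set its value. Pdpk1, the kinase that activates Akt, was at 10.41 and 10.24 in DIO, against 10.95 and 10.95 in the controls, a difference of −0.63 ± 0.13, and its second probe set differed by −0.48 ± 0.12. Foxo1 ran the other way, at 9.17 and 9.02 in DIO, against 8.73 and 8.55 in the controls, a difference of 0.45 ± 0.15. Its other 3 probe sets differed by 0.28, 0.32 and 0.12. The brighter Foxo3 and Foxo4 were lower in DIO, by −0.50 ± 0.18 and −0.41 ± 0.20, with both DIO arrays below both controls. By their other probe sets Foxo3 differed by −0.22 and 0.008, and Foxo4 by −0.23. Grb14, an adaptor that binds Tie2, was at 4.91 and 5.07 in DIO, against 5.52 and 5.96 in the controls, and its second, dimmer probe set differed by 0.12. Pdpk1, Foxo1, Foxo3, Foxo4 and Grb14 were named after their values were seen. None passed (limma, adjusted p = 0.739 for Foxo4 and 0.728 for each of the others). Of the brightest members, Rac1 differed by −0.18 ± 0.13, with both DIO arrays below both controls, Rhoa by 0.09 ± 0.13 and Akt1 by −0.03 ± 0.13. These are values of the brightest probe set of each. By its other probe sets Rac1 differed by −0.08 ± 0.16 and 0.03 ± 0.14, and the groups overlapped in both. The other probe sets of Rhoa disagreed in direction. Probe set 1450632_at differed by 0.14 ± 0.17, and the dimmer 1443768_at by −0.73 ± 0.13, with both DIO arrays below both controls.

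Genes known as FOXO targets had a median difference of −0.31 over 15 members, beside 0.02 over all genes and −0.02 without the dimmest 40%. The DIO mean was lower for 13, or 86.7%, where 46.7% of all genes had a lower one. For 6, or 40%, each DIO array lay below each control, where 17% of all genes did. This leaned on control 2, where 9 of the 15, or 60%, were highest, as were 21% of all genes. Set against control 1 the DIO median was −0.11, and set against control 2 it was −0.46. Both DIO arrays were lower than control 1 for 7, or 46.7%, where 42.3% of all genes were, and lower than control 2 for 11, or 73.3%, where 29.6% were. No member passed, and 1, or 6.67%, had an unadjusted p below 0.05, where 6.58% of all genes did. This member was Cat, the peroxide-degrading catalase, at 11.16 and 11.57 in DIO, against 10.47 and 10.91 in the controls. Its difference was 0.67 ± 0.24, against the direction of the list. Its second probe set differed by 0.20 ± 0.12. The brightest members Cited2, Txnip and Sod2 differed by −0.20 ± 0.18, −0.07 ± 0.18 and 0.09 ± 0.22.

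Transcription factors known to act on Tie or angiopoietin genes had a median difference of 0.01 over 19 members, and each DIO array lay below each control for 4, or 21.1%, and above for 3, or 15.8%, where 17% and 21.4% of all genes did. None passed and 2, or 10.5%, had an unadjusted p below 0.05, where 6.58% of all genes did. Foxc1, a forkhead factor of vessel development, was at 5.85 and 6.28 in DIO, against 6.91 and 7.67 in the controls, a difference of −1.22 ± 0.33 (limma, adjusted p = 0.728). Its second probe set was at 5.15 and 5.54 in DIO, against 5.41 and 6.99 in the controls, where DIO 2 lay above control 1. Foxc2, named after its values were seen, differed by 0.42 ± 0.12 at levels above 37.2% of the olfactory receptor probe sets. The hypoxia factors Hif1a and Epas1 differed by −0.16 ± 0.15 and −0.50 ± 0.28, and the ETS factor Ets2 by −0.10 ± 0.14.

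**Figure D4:**
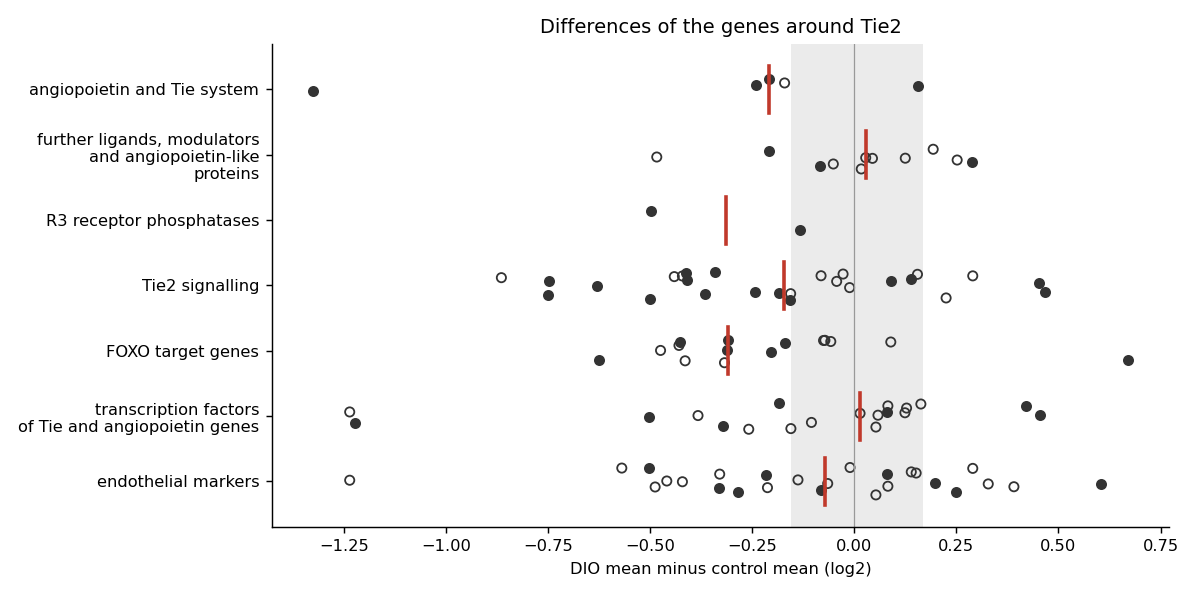
DIO mean minus control mean in log2 units for each gene of 7 lists; filled points are genes whose groups do not overlap, red bars are list medians and grey is the interquartile range of all genes, from −0.15 to 0.17. The Tie2 signalling median lies at −0.17 and that of the FOXO targets at −0.31, while Tek lies farthest left in the top row at −1.33.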

How the data were processed

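The authors deposited 1 table of log2 expression levels. Its background correction, normalization and summary are not stated by any label or header, and the log2 scale was read from the range of the values. Column medians were 5.61 and 5.61 in DIO, against 5.63 and 5.65 in the controls. Of 45101 probe sets, 64 manufacturer controls were left out, 34945 had 1 gene symbol in the platform annotation, 932 had several and 9160 were unlisted there. Each gene took its brightest probe set. Groups of 2 arrays were compared with limma 3.58.1 (R 4.3.3), 2-sided, and p-values were adjusted over 18193 genes (Benjamini-Hochberg). The median half-width of a 95% interval was 0.46, which depends on the number of arrays and on the spread of each gene. Further probe sets came from the same fit over 45037 probe sets, of which 0 passed (4184 had an unadjusted p below 0.05). The fit was tested on simulated data. Members and lists were chosen with earlier results of these data known. The text names all members, the 3 brightest genes of a list, the smallest p of a pathway list, and the 3 genes nearest to any member that varied by 1 log2 unit or more. Some listed genes were not analysed here. Alternatives changed the scaling, the dim-gene filter, the probe set rule, the variance model, the block and the arrays used, and counts against 1 control alone were added after the values were seen.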

Additional observations from a re-analysis of the deposited data

How the results depend on the processing

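No member passed under any alternative run. The differences of Angpt1, Tek and Tie1 kept their sign under all of theirs. Angpt2 was at 0.039 by its second probe set, and Ptprb was at −0.16 and −0.31 by its other probe sets and at −0.11 with probe sets averaged. Leaving out 1 array gave Tek from −2.15 to −0.51. The count of genes past the threshold was 0 except without control 1, where it was 483; leaving out 1 array thus gave 0 to 483. The samples share only a mouse number: with the replicate block Tek was at −1.33 (limma, adjusted p = 0.727) and 0 genes passed, and 982 genes had an unadjusted p below 0.05, against 1198 without the block. Deviations of same-numbered arrays correlated at 0.33 and those of differently numbered arrays at −0.33. With 2 arrays a group these values mirror each other whatever the numbering, so they cannot show that same-numbered arrays belong together.
Over the alternatives the list medians ran from −0.13 to 0.15 for further ligands, from −0.18 to 0.043 for transcription factors, from −0.36 to −0.11 for R3 phosphatases (Ptprj and Ptpro), from −0.24 to −0.13 for Tie2 signalling, from −0.46 to −0.11 for FOXO targets, and from −0.28 to −0.022 for endothelial markers. Without the dimmest 40% of genes, Angpt1, Tek, Tie1, Ptprb and both of these phosphatases were no longer tested. A level near background limits what can be seen of Angpt1, Tie1 and Ptprb.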
